A study of Mus musculus with 6 samples.

Results

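Lysosomal transcripts were read in mouse embryonic fibroblasts labelled wild type or null for SphK2, the sphingosine kinase that the study targeted. The members are 39 genes of the 46983 counted, taken by symbol from a list of lysosomal proteases, glycosidases, lipid-handling proteins, membrane proteins, subunits of the proton pump and the transcription factors that act on them, and all 39 were matched to a gene identifier. Both groups came from C57BL/6 embryos of 14 days at passage 16, the null-labelled cells differ from the others by their SphK2 genotype per the labels, and each group has 3 libraries. The sources used here do not give which part of Sphk2 the null allele lacks, nor whether a group's libraries stem from separate embryos or cultures. A p-value below thus measures spread among 3 libraries a label, which may be technical.

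Lysosomes are acidic organelles in which proteins, glycans and lipids are broken down. A proton pump of the membrane, the V-ATPase, keeps the lumen acidic, and soluble hydrolases, among them the cathepsins, work at that acidity. Most hydrolases reach the lysosome by a mannose-6-phosphate tag that sorting receptors recognise. Many genes of the system are under the MiT/TFE factors, of which TFEB is the best known, and mTORC1 signalling at the lysosomal surface holds these factors in the cytoplasm when nutrients are plentiful. In fibroblasts the lysosome also takes up and degrades matrix proteins. Sphingosine, the substrate of SphK2, is released there from ceramide.

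Libraries held 15598566 to 23681718 reads in genes. Levels are given as CPM, the usual counts relative to library size, with that size scaled by TMM factors, and levels of different genes are compared only as CPM per kilobase (kb) of exon. Sphk2 itself stood at 28.1, 27.4 and 26.3 CPM under the wild-type label and 49.4, 51.6 and 49.1 CPM under the null label, so that the libraries labelled null had more, not fewer, reads of the targeted gene (log2 fold change 0.87 ± 0.051 (SE), edgeR adjusted p = 4.48e-64). Of the exonic bases of Sphk2, 20.8% are shared with Dbp and Rpl18 and went uncounted. The deposited counts sum all exons and do not settle the genotype, and every direction below is between labels. All 12 listed fibroblast markers were lower in the null-labelled libraries, with summed levels of 268 to 272 CPM against 7445 to 7709 CPM. Most of the sum under the wild-type label was Col1a2 and Col3a1, at 2605 and 3059 CPM on average against 7.39 and 8.86 CPM. Col1a1 (623 against 1.68 CPM), Dcn (99.8 against 0.521 CPM), Fap (29.0 against 0.112 CPM), Lum (15.9 against 0.0526 CPM) and Thy1 (4.49 against 0 CPM) were also nearly lost. The rest fell less, with Prrx1 at 550 against 59.7, Pdgfra at 250 against 89.4 and Twist1 at 159 against 59.5 CPM. Pdgfrb stood at 107 against 29.0 and Twist2 at 72.5 against 14.7 CPM. The markers of the labelled cell type were thus lower in 1 group, to unlike degrees, and the part of this in the lysosomal differences was not tested. In such bulk samples, fewer cells of a type and less RNA per cell cannot be told apart. Libraries of a group correlated across genes at r of 0.995 to 0.996 and those of different groups at 0.812 to 0.815.

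The summed CPM of the lysosomal genes overlapped between the labels, while its make-up differed. Together the 39 genes took 5766 to 5864 CPM in the wild-type-labelled and 5795 to 5933 CPM in the null-labelled libraries, ranges that overlap. This sum is not scaled by exon length. With each gene taken per length, the sum was slightly higher in every null-labelled library than in any wild-type-labelled one. By class, the per-length level under the null label was 0.839 (Sqstm1 alone) to 1.28 times (MiT/TFE factors) that under the wild-type label. Of 37 members that passed the filter on low counts, 18 rose and 17 fell from the wild-type to the null label at an adjusted p under 0.05 in edgeR's quasi-likelihood test. Of all 15199 genes tested, 38.1% were higher and 41.1% lower, 79.2% in all, so most genes differed whether lysosomal or not. The members called made up 94.6% of those tested, and the members were also more abundant than the rest, with a median average log2 CPM of 6.50 against 4.59. By over 2-fold in the fit, 12 members (32.4%) differed, Tpp1 only just, beside 26.2% of all genes. The 3 libraries of each label did not overlap for 36 of the 37 members, beside 79.9% of all genes. The median log2 fold change of the members was -0.011, and that of all genes was -0.020. Only Ctsf and Ctss did not pass the filter. The counts within single classes below are to be read beside these shares of all genes.

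**Figure D1:**
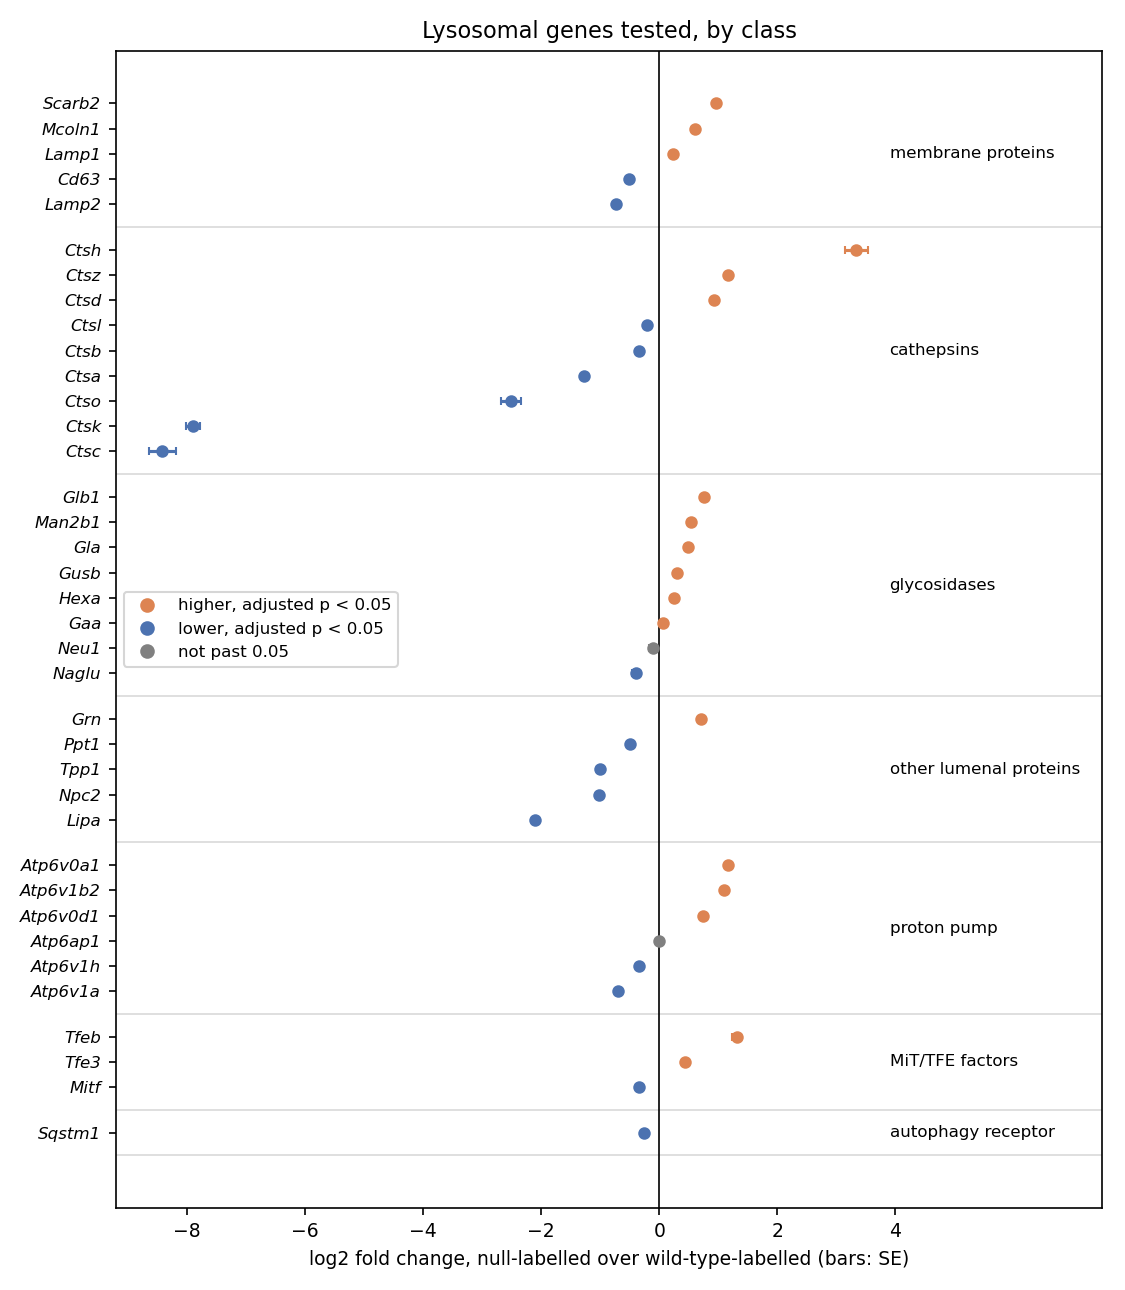
Log2 fold change of the 37 tested lysosomal genes, null-labelled over wild-type-labelled libraries (3 each), by class, with SE as bars. Orange points are the 18 higher genes, blue points the 17 lower ones and grey points the 2 not past the threshold, and the 3 largest falls are those of Ctsc, Ctsk and Ctso.

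Cathepsins held the 4 largest differences among the tested members, in both directions. Of 9 tested, 3 were higher and 6 lower, and 6 of these differed by over 2-fold, beside 38.1%, 41.1% and 26.2% of all genes. A pair of cathepsins came close to disappearing. Cathepsin K (Ctsk, chr3:95499256-95509362 on GRCm38), a cysteine protease that cleaves collagen and is best known from osteoclasts, stood at 69.4, 72.1 and 69.7 CPM under the wild-type label and 0.154, 0.350 and 0.373 CPM under the null label. Every null-labelled library was below every wild-type-labelled one by a wide margin (log2 fold change -7.89 ± 0.12 (SE), edgeR adjusted p = 0, a value too small for the program to hold), and the mean was 241-fold lower. Cathepsin C (Ctsc, chr7:88278085-88310888), a dipeptidyl peptidase that activates serine proteases of immune granules, had 445, 342 and 404 reads against 0, 1 and 2. The ratio of the wild-type-labelled to the null-labelled level was 382, with an exact 95% counting interval of 130.4 to 1855, and edgeR adjusted p = 2.48e-297. The fitted log2 fold change of so few reads moved with single libraries, from -8.42 to -9.26 without null-labelled replicate 3 and to -7.84 without null-labelled replicate 1.

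Lower levels were found in 3 other cathepsins. Ctso, a cysteine cathepsin of low level here, stood at 7.01, 8.14 and 7.12 against 1.13, 1.46 and 1.28 CPM, wild-type-labelled libraries first (log2 fold change -2.52 ± 0.17 (SE), edgeR adjusted p = 1.9e-50). Ctsa, a serine carboxypeptidase that also shields beta-galactosidase and the sialidase Neu1 from degradation, stood at 172, 168 and 169 against 70.1, 68.6 and 72.3 CPM (log2 fold change -1.27 ± 0.034 (SE), edgeR adjusted p = 9e-308). Ctsf had 13, 12 and 7 reads against 0, 0 and 0, which puts it at least 10.3-fold lower with the null-labelled group set at 3 reads over its 3 libraries, and it was not tested. In all of these the groups of libraries were apart. Of the exonic bases of Ctsa, 17.4% also belong to exons of Neurl2 and Pltp, and reads there were left uncounted.

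In the other direction, Ctsh, Ctsz and Ctsd were higher in the null-labelled libraries. Ctsh, an aminopeptidase of the family, had 11 to 18 reads in each wild-type-labelled library and 110 to 166 in each null-labelled one, or 0.774, 0.722 and 0.576 CPM under the wild-type label and 8.50, 6.42 and 6.18 CPM under the null label. Its mean was 10.2-fold higher (log2 fold change 3.33 ± 0.19 (SE), edgeR adjusted p = 1.11e-65), and the null-labelled libraries were also the more spread. Ctsz, a carboxypeptidase, stood at 121, 124 and 123 against 264, 277 and 285 CPM (log2 fold change 1.17 ± 0.028 (SE), edgeR adjusted p = 0, too small to hold). Ctsd, the main aspartic protease of the lysosome, stood at 301, 319.6 and 307 against 582, 598 and 586 CPM (log2 fold change 0.93 ± 0.024 (SE), edgeR adjusted p = 0, likewise). Both were far more abundant than Ctsh, and in both every null-labelled library was above every wild-type-labelled one.

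Ctsb and Ctsl, broad cysteine endopeptidases, were abundant under both labels and differed little. Ctsb stood at 642 ± 16.0 against 507 ± 13.0 CPM (SD, n = 3) and Ctsl at 564 ± 5.15 against 487 ± 2.34 CPM (SD, n = 3), with log2 fold changes of -0.34 ± 0.023 (SE) and -0.21 ± 0.023 (SE). These small differences passed the test (edgeR adjusted p = 2.37e-50 and 5.2e-20), and the groups did not overlap. Of the exonic bases of Ctsb, 16.2% are shared with Fdft1 on the map and went uncounted. Ctss, a cathepsin of antigen-presenting cells whose gene lies next to Ctsk on chromosome 3 (chr3:95526786-95556403), had 1, 0 and 1 reads against 1, 2 and 0 and was at or under the floor of 3 reads in every library. Of 12 macrophage markers, 2 were tested, Lyz2 and Csf1r, and both passed the filter on low counts only through the null-labelled libraries. With so few reads under the wild-type label, they could be tested only if higher under the null label. Their direction is thus no result apart from the filter. Lyz2, a lysozyme, had 1, 0 and 1 reads against 58, 43 and 51 (edgeR adjusted p = 6.85e-40) and Csf1r, the receptor of CSF1, 6, 3 and 7 reads against 24, 21 and 11 (edgeR adjusted p = 2.14e-06). The other 10 had too few reads to be tested. Over the libraries of a label, Ptprc had 7 reads against 11, Spi1 4 against 4 and Fcer1g 22 against 15. C1qa and C1qc were at 0 in all 6 libraries, and the rest had at most 2 reads in a library. The summed level of the list was 0.787 to 1.15 CPM against 4.21 to 4.61 CPM, most of the latter being Lyz2 and Csf1r, at 2.73 and 1.01 CPM on average. The part of these markers in the cathepsin values was not tested.

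**Figure D2:**
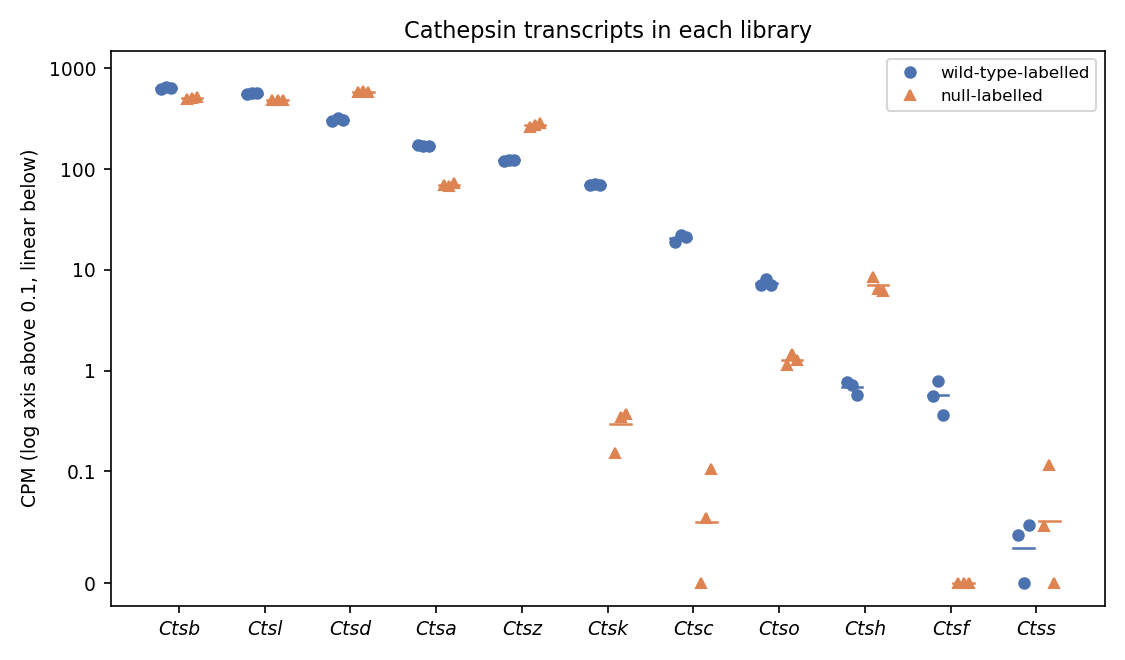
CPM of the 11 cathepsins in each of the 6 libraries, with a bar at each group's mean, on an axis that is logarithmic above 0.1 and linear below. Ctsk and Ctsc fall from 69.4 and 19.1 CPM or more to under 0.4 CPM in all null-labelled libraries, and Ctsh rises, while Ctsb and Ctsl stay within a narrow band.

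Per exon length, the sum of the 11 cathepsins was 1.11-fold higher under the null label, at 717 ± 11.4 against 796 ± 11.8 CPM per kb (SD, n = 3), and its parts moved by more. Ctsd went from 17.1% ± 0.262 to 29.4% ± 0.416 (SD, n = 3) of the sum, and Ctsz from 11.9% ± 0.0409 to 24.0% ± 0.545 (SD, n = 3). Ctsl fell from 39.9% ± 0.321 to 31.1% ± 0.437 (SD, n = 3) and Ctsb from 18.9% ± 0.180 to 13.4% ± 0.145 (SD, n = 3), with Ctsl still the largest part under both labels. Ctsk, 6.49% of the sum in wild-type-labelled libraries, held 0.0242% in the null-labelled ones. Thus Ctsd and Ctsz together made up 28.8% to 29.2% of cathepsin transcripts in the former and 53.0% to 53.7% in the latter. Within single libraries, the per-length ratio of Ctsd to Ctsb was 0.907 ± 0.010 in the wild-type-labelled and 2.19 ± 0.048 in the null-labelled libraries (SD, n = 3).

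**Figure D3:**
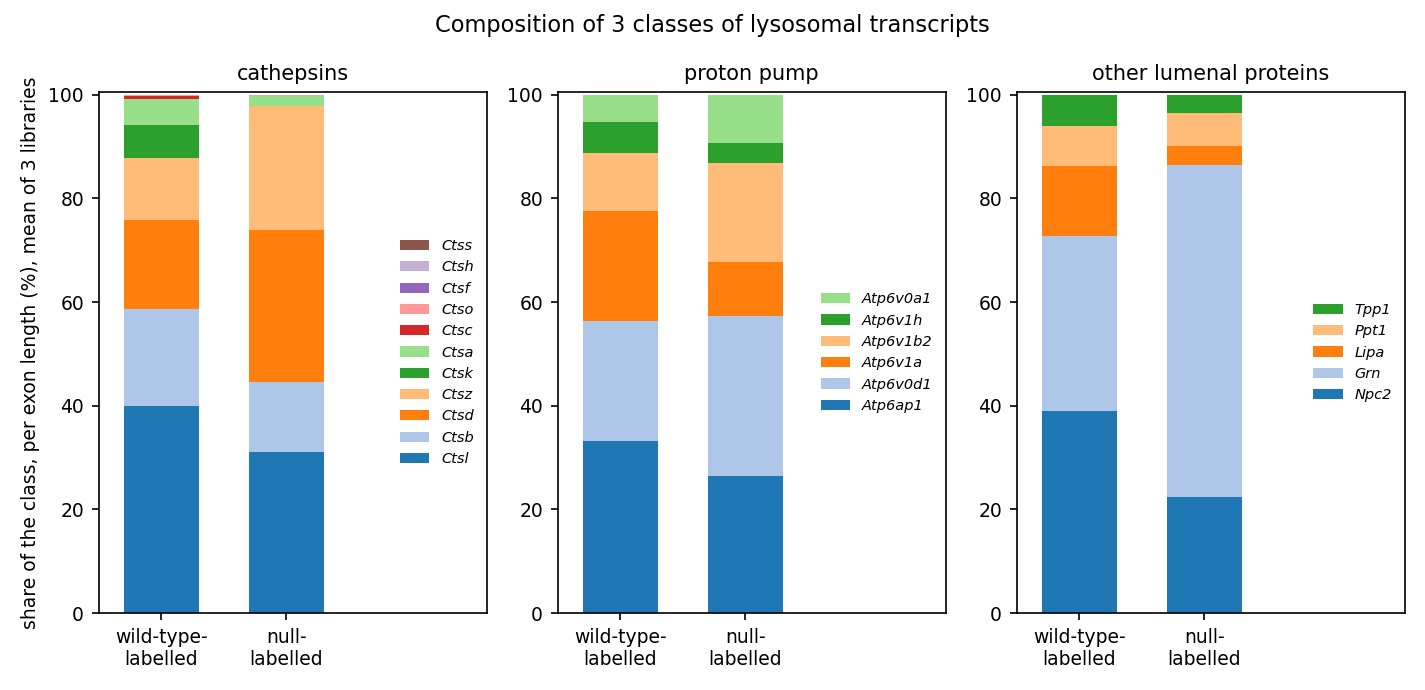
Share of each gene in the per-length sum of its class (mean of 3 libraries, in percent), for cathepsins, members of the proton pump and other lumenal proteins. Ctsd and Ctsz take a larger part of the cathepsins in the null-labelled bars, Atp6v1b2 and Atp6v0d1 a larger part of the pump, and Grn grows from 33.7% to 64.0% of the last class.

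Glycosidases, which remove sugars from glycoproteins, glycolipids and glycogen, mostly rose by small amounts. Of 8 tested, 6 were higher and 1 lower, none by over 2-fold, and the per-length sum was 132 ± 2.75 against 161 ± 2.41 CPM per kb (SD, n = 3). Glb1, beta-galactosidase, stood at 35.3, 39.2 and 34.8 against 62.6, 61.6 and 59.9 CPM (log2 fold change 0.76 ± 0.046 (SE), edgeR adjusted p = 8.52e-60), and Man2b1, an alpha-mannosidase, at 64.1, 60.6 and 62.6 against 90.6, 90.5 and 90.6 CPM (log2 fold change 0.53 ± 0.039 (SE), edgeR adjusted p = 1.82e-41). Every null-labelled library was above the others for both. Gla, the alpha-galactosidase that is lacking in Fabry disease, had a log2 fold change of 0.48 ± 0.049 (SE), Gusb, beta-glucuronidase, 0.30 ± 0.035 (SE), and Hexa, the alpha subunit of beta-hexosaminidase, 0.25 ± 0.045 (SE), with edgeR adjusted p-values of 2.03e-22, 7.7e-17 and 7.53e-08. Gaa, which degrades glycogen, was the most abundant per length under both labels. Its difference was slight (log2 fold change 0.071 ± 0.030 (SE), edgeR adjusted p = 0.0218), and it was lost with DESeq2 (DESeq2 adjusted p = 0.102), with no filter on low counts (edgeR adjusted p = 0.207), without wild-type-labelled replicate 3 (0.221) and without null-labelled replicate 2 (0.0600).

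Naglu, which acts on heparan sulfate, was the lower member, at 19.8, 24.2 and 21.4 against 15.3, 17.5 and 16.7 CPM (log2 fold change -0.39 ± 0.069 (SE), edgeR adjusted p = 3.61e-08). Neu1, the lysosomal sialidase, stood at 26.5, 26.2 and 25.6 against 24.7, 23.5 and 24.3 CPM and did not pass the test (log2 fold change -0.11 ± 0.061 (SE), edgeR adjusted p = 0.0789), although the libraries of the labels did not overlap. Ctsa, Glb1 and Neu1, whose products are known to form 1 complex, thus had log2 fold changes of -1.27, 0.76 and -0.11. Whether these differ from each other was not tested.

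Among the other lumenal proteins, all but Grn were lower, those that handle lipids and the peptidase Tpp1 alike. Of 5 tested, 1 was higher and 4 lower, 3 of them by over 2-fold in the fit. Of these, Tpp1 was at the limit. Its means differed 1.99-fold, and its log2 fold change lay between -1.025 and -0.970 when 1 library was left out. Lipa, the acid lipase that frees cholesterol and fatty acids from lipoproteins taken up by the cell, stood at 119, 114 and 112 CPM under the wild-type label and 27.2, 27.2 and 26.3 CPM under the null label. The groups were far apart (log2 fold change -2.10 ± 0.044 (SE), edgeR adjusted p = 0, too small to hold), with a mean 4.28-fold lower. Npc2, which carries the freed cholesterol to the membrane protein Npc1, stood at 370.0, 369 and 358 against 179, 182 and 182 CPM (log2 fold change -1.02 ± 0.026 (SE), edgeR adjusted p = 0, too small to hold), 2.02-fold lower. Npc1 itself, not a member, differed little at 44.7 ± 2.38 against 41.5 ± 0.840 CPM (SD, n = 3) (log2 fold change -0.12 ± 0.048 (SE), edgeR adjusted p = 0.0212). Tpp1, a tripeptidyl peptidase, stood at 63.2, 58.9 and 59.995 against 29.2, 31.2 and 30.9 CPM (log2 fold change -1.001 ± 0.048 (SE), edgeR adjusted p = 7.23e-95), and Ppt1, which removes palmitate from proteins, at 82.5 ± 1.55 against 58.8 ± 1.72 CPM (SD, n = 3) (log2 fold change -0.49 ± 0.040 (SE), edgeR adjusted p = 1.18e-33). Both are known as genes of neuronal ceroid lipofuscinosis, and neither had overlapping groups.

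Grn, the precursor of the granulins and a partner of several hydrolases, was the exception in this class. It stood at 335, 336 and 338 CPM under the wild-type label and 529, 564 and 561 CPM under the null label, and all null-labelled libraries were higher (log2 fold change 0.71 ± 0.024 (SE), edgeR adjusted p = 5.19e-198). With the fall of the rest, its share of the per-length sum of these 5 genes went from 33.7% ± 0.492 to 64.0% ± 0.489 (SD, n = 3).

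Proteins of the lysosomal membrane went both ways, with 3 higher and 2 lower of 5 and none past 2-fold. Scarb2, also LIMP-2, a protein that spans the lysosomal membrane and reaches into its lumen, was close to 2-fold higher, at 53.5, 53.1 and 50.5 against 104, 102 and 100.8 CPM (log2 fold change 0.97 ± 0.040 (SE), edgeR adjusted p = 3.22e-129). Mcoln1, the calcium channel TRPML1, stood at 30.3, 26.8 and 29.3 against 42.3, 44.6 and 45.1 CPM (log2 fold change 0.60 ± 0.052 (SE), edgeR adjusted p = 1.8e-30). The major glycoproteins of the membrane parted, Lamp1 being higher at 508 ± 4.58 against 596 ± 9.58 CPM (SD, n = 3) and Lamp2, which also serves in autophagy, lower at 244 ± 3.08 against 146 ± 5.17 CPM (SD, n = 3), with log2 fold changes of 0.23 ± 0.023 (SE) and -0.74 ± 0.028 (SE) (edgeR adjusted p = 2.36e-23 and 2.25e-151). The per-length ratio of Lamp1 to Lamp2 was 8.83 ± 0.043 in the wild-type-labelled and 17.3 ± 0.89 in the null-labelled libraries (SD, n = 3). Cd63, a tetraspanin of late endosomes, was lower at 221 ± 2.53 against 155 ± 5.70 CPM (SD, n = 3) (log2 fold change -0.51 ± 0.028 (SE), edgeR adjusted p = 3.64e-72), and a pseudogene of it is among the genes counted, so some of its reads may have been left out as mapping to several places.

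Subunits of the proton pump did not move as 1 block. Of 6 members, 3 were higher and 2 lower, and their per-length sum was 164 ± 0.687 against 205 ± 1.10 CPM per kb (SD, n = 3). In the membrane sector V0, Atp6v0a1, an isoform of the subunit that lines the proton path, stood at 57.7, 54.5 and 55.3 CPM under the wild-type label and 122, 125 and 128 CPM under the null label. That is 2.24-fold higher (log2 fold change 1.16 ± 0.037 (SE), edgeR adjusted p = 9.7e-209). Atp6v0d1, which couples the sectors, stood at 68.6, 65.5 and 69.5 against 111, 115 and 114 CPM (log2 fold change 0.74 ± 0.037 (SE), edgeR adjusted p = 2.11e-88), and neither gene had overlapping groups.

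In the cytoplasmic sector V1, the partners that alternate in its ATP-splitting head went in opposite directions. Atp6v1a, the catalytic A subunit, stood at 209.7, 218 and 204 CPM under the wild-type label and 129, 131 and 128 CPM under the null label (log2 fold change -0.70 ± 0.029 (SE), edgeR adjusted p = 4.65e-127). Atp6v1b2, the B subunit, stood at 93.2, 99.8 and 97.9 CPM under the wild-type label and 209, 203 and 209 CPM under the null label (log2 fold change 1.10 ± 0.031 (SE), edgeR adjusted p = 2.47e-277). The wild-type-labelled libraries were the higher ones for A and the null-labelled ones for B, with no overlap in either. The per-length ratio of A to B was 1.91 ± 0.071 in the wild-type-labelled and 0.548 ± 0.017 in the null-labelled libraries (SD, n = 3). The size of this ratio depends on the exon lengths of the annotation, but the fold between its values under the labels does not. Atp6v1h, a regulatory subunit, stood at 96.1, 98.2 and 95.7 against 73.4, 78.0 and 76.9 CPM (log2 fold change -0.35 ± 0.037 (SE), edgeR adjusted p = 4.46e-20). Atp6ap1, an accessory protein needed for assembly, stood at 163, 165 and 167 against 165, 163 and 163 CPM, the only member with overlapping groups among the 37 tested (log2 fold change -0.011 ± 0.029 (SE), edgeR adjusted p = 0.743).

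Of 19 other subunits on a list chosen with earlier results known, 14 were tested, 4 were higher and 8 lower, with a median log2 fold change of -0.28. Atp6v0e2 had the largest log2 fold change (-2.11 ± 0.27 (SE), edgeR adjusted p = 8.18e-15). Its average log2 CPM of 0.688 is under the limit of 1 set by the naming rule. The largest differences by the naming rule were in Atp6v1g2 (log2 fold change -1.02 ± 0.18 (SE), edgeR adjusted p = 4.57e-08), a stalk isoform of low level, Atp6v0b of the proteolipid ring (log2 fold change 0.66 ± 0.044 (SE), edgeR adjusted p = 3.76e-50) and Atp6v1g1, the common stalk isoform (log2 fold change -0.66 ± 0.048 (SE), edgeR adjusted p = 5.4e-43). Of the other isoforms of the a subunit, Atp6v0a2 was lower at 65.7 ± 1.27 against 54.1 ± 1.92 CPM (SD, n = 3) and Tcirg1, the a3 isoform of osteoclasts, at 74.3 ± 7.14 against 56.5 ± 1.62 CPM (SD, n = 3) (edgeR adjusted p = 8.41e-11 and 4.66e-22), and Atp6v0a4 stood under 1 CPM in every library. Per length, Atp6v0a1 went from 8.51 to 19.1 CPM per kb, Atp6v0a2 from 9.76 to 8.04 and Tcirg1 from 16.6 to 12.6. Of these 3 isoforms Atp6v0a1 was thus the lowest per length in wild-type-labelled and the highest in null-labelled libraries. For the B subunit, the isoform Atp6v1b1 was at the floor in all libraries. Osteoclast markers, given here beside Ctsk and Tcirg1, had summed levels of 66.8 to 71.98 CPM against 68.3 to 71.3 CPM, most of it Nfatc1 at 53.0 ± 1.33 against 53.1 ± 1.74 CPM (SD, n = 3). Of the 7 listed, 4 were tested and went both ways: Ocstamp had 2, 2 and 0 reads against 13, 20 and 16 and Itgb3 stood at 9.86 ± 0.824 against 13.1 ± 1.32 CPM (SD, n = 3), both higher, and Mmp9 was lower at 6.33 ± 0.715 against 2.78 ± 0.545 CPM (SD, n = 3) (edgeR adjusted p = 4.13e-11, 2.61e-06 and 1.19e-15). Ocstamp passed the filter on low counts only through the null-labelled libraries, so its direction follows in part from the filter. Calcr was at 0 in all libraries, and the part of these markers was not tested.

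**Figure D4:**
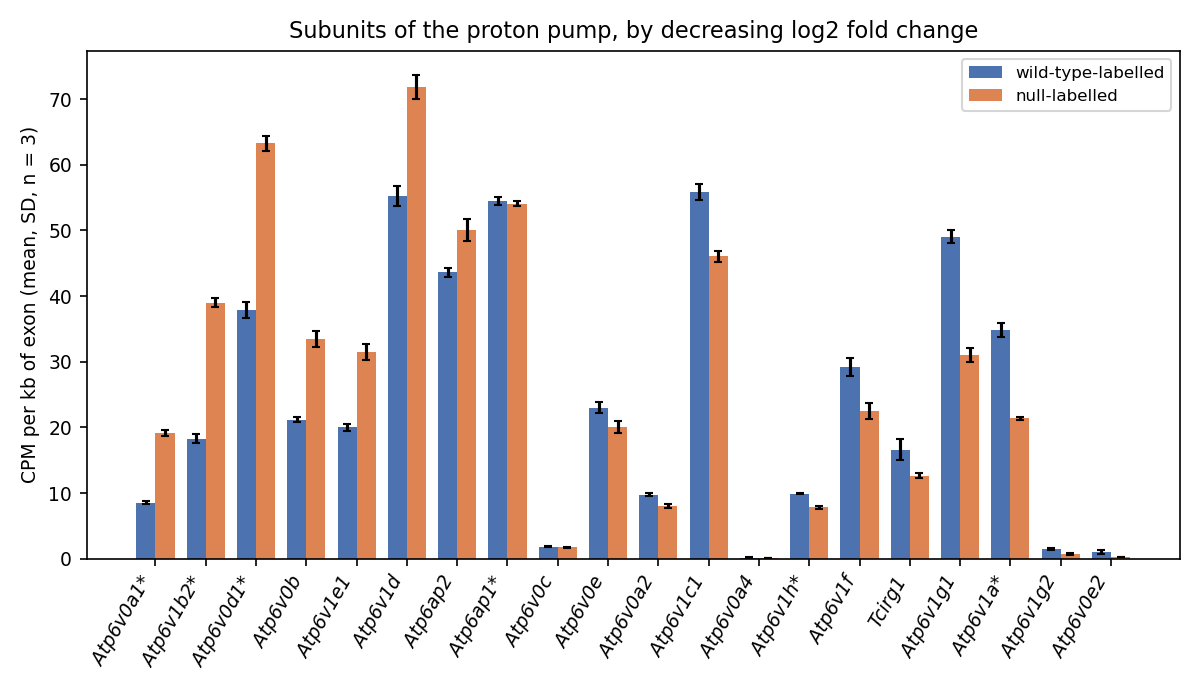
CPM per kb of exon (mean and SD, n = 3) of the 6 member subunits, marked by an asterisk, and the 14 other tested subunits of the proton pump, in order of decreasing log2 fold change. Blue bars are wild-type-labelled and orange bars null-labelled libraries, and subunits of the complex differ in both directions.

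The transcription factors differed too, Tfeb the most. Tfeb (chr17:47737030-47792419), which switches on lysosomal and autophagy genes when it enters the nucleus, stood at 10.0, 9.51 and 8.43 CPM under the wild-type label and 23.1, 25.5 and 21.4 CPM under the null label. It was 2.50-fold higher (log2 fold change 1.32 ± 0.078 (SE), edgeR adjusted p = 1.28e-63), with groups well apart. Tfe3, a paralog of like function, stood at 94.4, 95.8 and 94.2 against 128, 128 and 129.9 CPM (log2 fold change 0.44 ± 0.033 (SE), edgeR adjusted p = 2.22e-39). Mitf, the paralog best known from melanocytes, was lower at 34.2, 35.2 and 36.2 against 27.2, 29.2 and 27.1 CPM (log2 fold change -0.34 ± 0.055 (SE), edgeR adjusted p = 1.39e-09). Melanocyte markers were near 0 under both labels, with none of 6 tested, Dct and Tyr at 0 in all libraries and summed levels of at most 0.526 CPM. Per length, Tfe3 was the most abundant of the 3 under both labels, at 10.2 against 13.9 CPM per kb. Mitf stood at 5.68 against 4.49 and Tfeb at 1.64 against 4.12 CPM per kb, and the ratio of Mitf to Tfeb was 3.48 ± 0.41 in the wild-type-labelled and 1.09 ± 0.056 in the null-labelled libraries (SD, n = 3). Transcript levels do not show how much of these factors is in the nucleus. Sqstm1, the autophagy receptor p62 that is degraded with its cargo, stood at 586, 599 and 596 against 492, 497 and 505 CPM (log2 fold change -0.25 ± 0.023 (SE), edgeR adjusted p = 3.72e-28), and 17.3% of its exonic bases are shared with Mrnip and went uncounted.

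The MiT/TFE factors bind an E-box, CACGTG, most often within longer forms such as TCACGTGA or the longer palindrome known as the CLEAR element, and other E-box factors bind the core as well. RefSeq promoter windows on GRCm38.p6, the build of the counts, run from 250 bases before to 50 after a start site. They were found for 35 members (41 windows), and none for Ctsb, Ctsh, Atp6v1b2 and Atp6v1h. Each motif reads the same on both strands, and each longer form contains the shorter ones. The core CACGTG was in the windows of 12 of the 35 members (29.3% of windows), beside 7.15% of all 32851 windows and 9.81% of those of genes tested here. TCACGTGA was in 6 members (14.6% of windows), beside 0.974% of all windows and 1.80% of those of tested genes. The CLEAR palindrome, TCACGTGA with a G before and a C after it, was in 0 member windows and 0.326% of all windows. A match is a run of letters and not a measured binding site. The stretches with the 8-base form are shown because that is the longest form found in a member, each 5′ to 3′ on the strand of its gene with the motif in capitals.
Ctsa, chr2:164833752-164833775, plus strand: gcaaactgTCACGTGAtgcagatg
Ctsa, chr2:164833769-164833792, plus strand: gcagatgcTCACGTGAccagagct
Ctsd, chr7:142387911-142387934, minus strand: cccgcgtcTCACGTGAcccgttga
Gla, chrX:134601185-134601208, minus strand: gatctcggTCACGTGAgcaactct
Gla, chrX:134601218-134601241, minus strand: gcgattgaTCACGTGAgcatctac
Mcoln1, chr8:3500465-3500488, plus strand: cgccccgcTCACGTGAccgcggcg
Atp6v0d1, chr8:105566053-105566076, minus strand: tactgcggTCACGTGAgacgcggt
Atp6v1a, chr16:44139376-44139399, minus strand: tttttaaaTCACGTGAtaggctta

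Ctsa and Gla hold the 8-base form at more than 1 place, and in Atp6v0d1 it lies across the start site. The stretch of Ctsd is centred at -95 bases from its start and that of Atp6v1a at -128. The genes that share it did not share a direction. Of the 6, Atp6v0d1, Ctsd, Gla and Mcoln1 were higher and Ctsa and Atp6v1a lower, with a median log2 fold change of 0.54. Of the 11 tested members with the core, 7 were higher and 4 lower (median 0.23), and of the 22 tested members without it, 9 were higher and 11 lower (median -0.18). No test was made of this split. Lamp1 is shown for its 4 copies of the core within 250 bases before its start, the most of any member.
Lamp1, chr8:13159092-13159113, plus strand: caagatatCACGTGgtccagcg
Lamp1, chr8:13159108-13159129, plus strand: ccagcgccCACGTGatgccgac
Lamp1, chr8:13159125-13159146, plus strand: ccgactggCACGTGaccacatc
Lamp1, chr8:13159138-13159159, plus strand: gaccacatCACGTGcggaacgg

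Genes around the lysosome, were taken from lists chosen with earlier results known. Of 127 such genes, 114 were tested, 45 were higher and 49 lower, which is near the 38.1% higher and 41.1% lower of all genes, and the median log2 fold change was -0.0094. The counts of single lists are likewise to be read beside those shares. In the sorting of hydrolases, 5 were higher and 4 lower of 9. Igf2r, the large receptor for mannose-6-phosphate that also clears IGF2, stood at 238, 234 and 228 CPM under the wild-type label and 9.12, 8.82 and 8.53 CPM under the null label, 26.4-fold lower (log2 fold change -4.72 ± 0.047 (SE), edgeR adjusted p = 0, too small to hold). M6pr, the small receptor for the same tag, stood at 151, 155 and 154 CPM under the wild-type label and 328, 323 and 318 CPM under the null label, 2.10-fold higher (log2 fold change 1.07 ± 0.027 (SE), edgeR adjusted p = 0, too small to hold). The receptors thus parted with no overlap of groups. Sort1, sortilin, a route that does not need the tag, was 9.43-fold lower at 7.87, 7.55 and 8.27 against 0.768, 1.05 and 0.693 CPM (log2 fold change -3.24 ± 0.18 (SE), edgeR adjusted p = 1.03e-70). Gnptab and Gnptg, which encode the enzyme that makes the tag, were higher (0.54 ± 0.040 (SE) and 0.62 ± 0.068 (SE), edgeR adjusted p = 4.53e-41 and 5.59e-19). They were named after their values were seen, as were Atp6v0a2, Atp6v0a4, Atp6v0e2, Atp6v1b1, Tcirg1, Cstb, Tfec and Npc1.

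**Figure D5:**
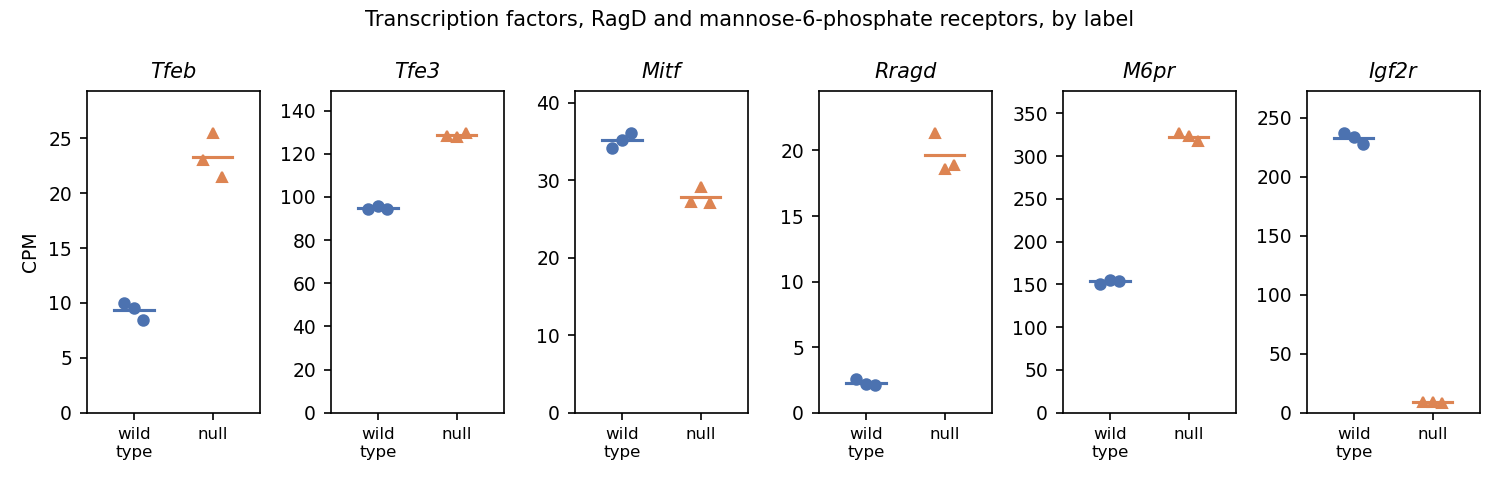
CPM of Tfeb, Tfe3, Mitf, Rragd, M6pr and Igf2r in each library (points) with group means (bars), each on its own axis from 0, with 3 wild-type-labelled and 3 null-labelled libraries. Groups overlap in none of the 6 genes. Igf2r drops from 233 to 8.82 CPM on average where M6pr rises from 154 to 323 CPM.

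Of 30 other hydrolases tested, 13 were higher and 13 lower. Arsb, arylsulfatase B of dermatan sulfate breakdown, had 477, 314 and 403 reads against 2, 0 and 1 (ratio 383, exact 95% counting interval 131 to 1859, edgeR adjusted p = 1.78e-297), a loss of the same order as that of Ctsc. Acp5, the tartrate-resistant acid phosphatase, was 4.88-fold higher at 1.25, 1.12 and 0.733 against 4.87, 5.02 and 5.22 CPM (log2 fold change 2.27 ± 0.19 (SE), edgeR adjusted p = 1.33e-31), and Galc had a log2 fold change of -1.79 ± 0.079 (SE). Of 19 tested membrane proteins and transporters, 9 were higher and 6 lower, with Laptm4b (-1.88 ± 0.042 (SE)) lower and Tmem192 (1.32 ± 0.057 (SE)) and Ostm1, a partner of the chloride exchanger Clcn7 (0.78 ± 0.062 (SE)), higher, and edgeR adjusted p-values of at most 1.11e-35. Of the 3 cystatins, which inhibit cysteine cathepsins, only Cst3 was called, and it was lower at 149 ± 3.35 against 97.2 ± 3.198 CPM (SD, n = 3) (log2 fold change -0.61 ± 0.032 (SE), edgeR adjusted p = 6.52e-78). Cstb, the abundant cystatin of the cytoplasm, stood at 112 ± 1.95 against 113 ± 1.01 CPM (SD, n = 3) (edgeR adjusted p = 0.693).

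Of 21 autophagy genes, 8 were higher and 8 lower, near the 38.1% and 41.1% of all genes. Those with the largest differences were higher, namely Atg9b (log2 fold change 2.31 ± 0.12 (SE), edgeR adjusted p = 3.16e-80), Uvrag, which acts in autophagosome maturation (log2 fold change 1.199 ± 0.034 (SE), edgeR adjusted p = 8.31e-272), and Atg7, the activating enzyme of the conjugation step (log2 fold change 1.11 ± 0.051 (SE), edgeR adjusted p = 2.95e-104). Of 18 tested genes of mTORC1 control, 6 were higher and 9 lower. Rragd, the RagD GTPase that recruits mTORC1 and is itself known as a target of MiT/TFE factors, stood at 2.54, 2.17 and 2.15 CPM under the wild-type label and 21.4, 18.6 and 18.9 CPM under the null label, 8.59-fold higher (log2 fold change 3.09 ± 0.11 (SE), edgeR adjusted p = 1.04e-164). The other differences there were small, with Lamtor3 of the Ragulator scaffold (-0.46 ± 0.052 (SE)) and Tsc2, which restrains mTORC1 (-0.40 ± 0.030 (SE)), lower at edgeR adjusted p = 8.13e-18 and 9.96e-40. Tfec, the remaining MiT/TFE gene, had no read in any library.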

How the data were processed

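Single reads from 6 libraries were counted per gene by the authors. Per the file headers, the deposited values are raw counts made with featureCounts 1.6.2 over exons of Ensembl release 83 on GRCm38, with no option set for strand or for reads that map to several places. By the program's default, such reads are left out, as is any read that overlaps several genes. The submitters' processing notes name featureCounts 1.2.6, at odds with the headers, besides Subread 1.6.2, FastQC 0.11.2 and Trimmomatic 0.33. Exon lengths are those of the deposited files.

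Groups were taken from the sample titles. Genes passing edgeR's filterByExpr (15199 of 46983) entered the quasi-likelihood F-test of edgeR 4.0.16 in R 4.3.3 (TMM scaling, robust, 3 null-labelled against 3 wild-type-labelled libraries, no covariate), with Benjamini-Hochberg adjustment over all of them. SE is the log2 fold change over the square root of F. On counts simulated for those 15199 genes in this comparison, the test called 52% of 50 genes changed by 1.2-fold, 98% of 50 changed by 4-fold and 0.06% of 14999 unchanged ones. Far fewer genes were changed there than the 79.2% called in the data, and all genes had a common dispersion. The simulation thus cannot show how the scaling and the test fare where most genes differ. A level of 3 reads is 0.127 to 0.192 CPM per library, and intervals cover counting error only. DESeq2 1.42.0, limma 3.58.1 (voom), median-of-ratios scaling, other filters, a stricter threshold, a replicate block and leaving out each library were run as alternatives.

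Members, lists and classes were chosen with earlier results of these data known. All members are named. Of each other list, the 3 genes past 0.05 with the largest differences and an average log2 CPM of at least 1 are named.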

Additional observations from a re-analysis of the deposited data

How the results depend on the processing

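Of the 37 tested members, 36 kept their direction and their side of the threshold under every alternative run, and the exception was Gaa. The counts of members and of list genes in each direction, and of all genes called, stayed within 1.5 times of the values given. The members' median log2 fold change, near 0, moved from -0.011 to -0.035 with no filter on low counts, where 39 members were tested, and lay between -0.073 and -0.015 when 1 library was left out, below 0 each time. In those fits 17 to 18 members were called in each direction. With the replicate number as a block, 18 members were higher and 17 lower and 12003 genes were called in all. Deviations of same-numbered libraries from their group means correlated at -0.0028 to 0.018, so the numbers do not pair the libraries. No scaling moved the median of all genes by over 0.1. With only the bases before the start site searched, CACGTG was in 11 members and TCACGTGA in 5. Depth limits Ctsf and Ctss, at most 13 reads in a library.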

Other observations

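Receptors that bring cargo to the lysosome from the cell surface were looked at after their values were seen, on a list of extraembryonic endoderm markers. Lrp2, megalin, a large endocytic receptor of absorptive epithelia, stood at 2.24, 1.44 and 1.78 CPM under the wild-type label and 98.8, 108 and 101.0 CPM under the null label (log2 fold change 5.77 ± 0.077 (SE)), and the groups were far apart. Its partner Cubn, cubilin, went the other way, at 5.42, 5.51 and 6.39 against 1.90, 3.04 and 3.09 CPM (log2 fold change -1.12 ± 0.15 (SE), edgeR adjusted p = 1.84e-13), and Amn, which brings cubilin to the surface, had at most 5 reads in a library. Markers of other cell types moved as well. Of 13 endoderm markers, 7 were tested, 3 were higher and 4 lower, with Sox17 and Ttr at 0 in all libraries. Besides Lrp2, Sox7 was higher at 3.65 ± 0.384 against 20.04 ± 0.416 CPM (SD, n = 3) and Gata4 at 0.0656 ± 0.114 against 2.03 ± 0.496 CPM (SD, n = 3), while Gata6, Afp and Cubn were lower. The summed level of the list, 256 to 270.2 CPM under the wild-type label against 215 to 226 CPM under the null label, turns on Pdgfra and Lrp2. Pdgfra, also on the fibroblast list, made up most of it under the wild-type label and was lower at 249.6 ± 7.504 against 89.4 ± 1.19 CPM (SD, n = 3). Of 10 epithelial markers, 4 were tested, 2 were higher and 1 lower. Nearly all of their sum, 108 to 111 CPM against 385 to 412 CPM, is Krt8, at 107 ± 1.80 against 397 ± 13.4 CPM (SD, n = 3). Its partner Krt18 was lower at 1.19 ± 0.286 against 0.289 ± 0.0319 CPM (SD, n = 3), Krt7 was higher at 0.0537 ± 0.0114 against 1.27 ± 0.287 CPM (SD, n = 3), and Epcam and Cdh1 stood under 1 CPM in every library. Of 6 endothelial markers, 2 were tested, 1 higher and 1 lower, with sums of 1.59 to 2.30 CPM against 2.51 to 3.41 CPM. Of the markers of these lists, Gata4 and Krt7 passed the filter on low counts only through the null-labelled libraries. Gata6, Krt18 and the endothelial Cdh5 passed it only through the wild-type-labelled ones. The directions of these genes thus follow in part from the filter. The part of these markers in the lysosomal values was not tested.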
